A study of Saccharomyces cerevisiae with 12 samples.

Results

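The deletion strain bmh2∆ was compared with the deletion strain bmh1∆ at 50 mM KCl, over the 3 libraries whose column names begin with bmh2 50 mM and the 3 that begin with bmh1 50 mM, 6 of the 12 libraries of the series. Both strains were made in BY4741, a haploid laboratory strain of Saccharomyces cerevisiae of mating type a (MATa his3Δ1 leu2Δ0 met15Δ0 ura3Δ0). In bmh2∆ a marker cassette replaced the open reading frame (ORF) of BMH2, in bmh1∆ that of BMH1, the marker was then taken out to leave a loxP site, and each deletion is represented by 1 strain. Cells growing in Translucent YNB medium with 50 mM KCl were washed, put back into fresh medium with 50 mM KCl and frozen after 60 min, so that the culture handling was that of a potassium starvation without the starvation. The other 6 libraries of the series come from the same strains without KCl and were not compared here. Transcripts were counted as SAGE tags. For this, cDNA held by its poly(A) end is cut by NlaIII at CATG and a tag of 17 bases beyond the last CATG is read, and the values (RPM) are reads of a gene scaled to a common library total, given for 6053 genes. Tests were made on the 5054 genes that reached 3 RPM in 3 or more of these libraries.

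Yeast has a pair of 14-3-3 genes, of which BMH1 gives the more abundant protein and BMH2 the other. 14-3-3 proteins bind other proteins at phosphorylated sites as dimers and change their activity, place in the cell or stability. Their partners in yeast take part in glucose and nitrogen signalling, in the checkpoint that answers DNA damage and in phosphate signalling. In phosphate signalling the kinase Pho85 with its cyclin Pho80 keeps the transcription factor Pho4 out of the nucleus while phosphate is plentiful, and Pho4 otherwise switches on the PHO genes, among them the high-affinity transporter gene PHO84 and SPL2, which lowers low-affinity phosphate uptake.

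The sequences of the tags show what the measurement can say about each deletion and are those beside CATG in the reference genome (build R64, RefSeq). CATG is in capitals, and each line is 5′ to 3′ on the coding strand. The table gives 1 value a gene and not which of these tags was read.
BMH1, last CATG in the ORF: CATGtccgagtccggtcaagc
BMH1, first CATG after the stop codon: CATGtgcatgtacacacgtaa
BMH2, last CATG in the ORF: CATGcaattattaagggacaa
YLR154C-H, first CATG after the stop codon: CATGttcagtaggtgggagtg
EFM1, first CATG after the stop codon: CATGcaattttttctttttcc
IKS1, last CATG in the ORF: CATGcaaaaaatacatatact
The BMH1 ORF (YER177W) is at chrV:545611-546414 on the plus strand. Its last CATG (chrV:546318-546338) starts 97 bases before the end of the stop codon and the next one (chrV:546537-546557) 122 bases after it. The BMH2 ORF (YDR099W) is at chrIV:653607-654428 on the plus strand. Its last CATG (chrIV:654272-654292) starts 157 bases before the end of the stop codon, and no other CATG follows within 1000 bases. The IKS1 tag (chrX:328120-328140) lies within the ORF and the EFM1 tag (chrVIII:23588-23608) 47 bases beyond it.

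BMH2 was at 0.184, 0 and 0 RPM in bmh2∆ (C50, D50 and E50) and at 275, 363 and 505 RPM in bmh1∆ (lane 1a, lane 1b and B50). In C50 this is the smallest value that the table holds for that library, and BMH2 is listed at 0 in the others, so that the RNA of the deleted gene was at the floor in all libraries labelled bmh2∆. BMH1 was at 5175, 4276 and 4048 RPM in bmh2∆ and at 1466, 2189 and 536 RPM in bmh1∆. The libraries labelled bmh1∆ thus held RNA counted as BMH1, the mean being 4499.6 ± 596 RPM in bmh2∆ and 1397 ± 829 RPM in bmh1∆ (SD, n = 3). According to the primers in the methods the replaced part ends within the last bases of the BMH1 ORF, and the tag 122 bases past the stop codon lies outside the replaced part. The BMH1 value therefore does not check the bmh1∆ deletion, while BMH2 was present in all 3 bmh1∆ libraries and at the floor in all 3 bmh2∆ libraries. The log2 difference of BMH1 was 1.90 (standard error 0.55, limma adjusted p = 0.29), 1.32 against lane 1 and 3.06 against B50.

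The bmh1∆ libraries were of unlike origin. 2 of them came from lane 1, read from its undetermined reads by the indices GGATAT (lane 1a here) and CTATAG (lane 1b), and the third, B50, came from lane 7, whereas C50, D50 and E50 of bmh2∆ came from lane 5. Among these 6 libraries no lane held both strains, so that strain and lane cannot be told apart, in the comparison with lane 1 or in that with B50. If the step between the values of a library is 1 read, the depth was 10353246 to 12842532 reads in bmh2∆ and 6237952 to 19334173 in bmh1∆, lowest in B50. Over the genes tested, Pearson's r of log2(RPM + 1), across genes, which are not independent replicates, was 0.968 to 0.979 among the bmh2∆ libraries and 0.965 between lane 1a and lane 1b. B50 had an r of 0.923 with C50, 0.879 with D50 and 0.849 with E50, against 0.674 with lane 1a and 0.625 with lane 1b. B50 was thus closer to every library of the other strain than to those of its own. The median SD of log2(RPM + 1) was 0.24 in bmh2∆ and 0.74 in bmh1∆, and 0.26 within the lane 1 pair. Nothing in the labels says that libraries of a group came from separate cultures, so p values measure the spread between these libraries. The map of correlations shows the lane 1 pair apart from the other 4 libraries.

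**Figure D1:**
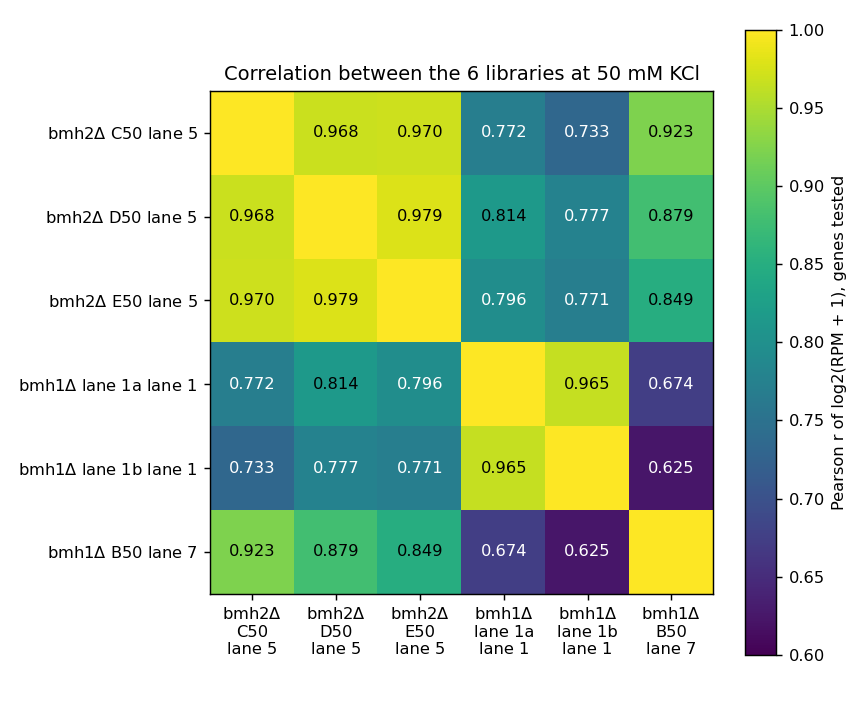
Pearson's r of log2(RPM + 1) over the 5054 genes tested for each pair of the 6 libraries, with bmh2∆ left of and above bmh1∆ and the lane of each library. The bmh1∆ library B50 had an r of 0.849 to 0.923 with the bmh2∆ libraries and of 0.625 and 0.674 with the bmh1∆ libraries of lane 1.

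On this spread, 2 of the 5054 genes (0.0396%) passed an adjusted p of 0.05 in limma, both lower in bmh2∆, beside 662 genes (13.1%) at an unadjusted p under 0.05. The first was the deleted BMH2, whose log2 difference, -8.45 with a standard error of 0.36 and adjusted p = 2.9e-04, is a value that depends on the pseudocount since bmh2∆ was at the floor. The second was YLR154C-H, an ORF of unknown function within the ribosomal DNA (chrXII:468827-468958, minus strand). It was at 2.31, 2.18 and 2.03 RPM in bmh2∆ and at 33.98, 40.6 and 30.9 RPM in bmh1∆. On the log2 scale bmh2∆ minus bmh1∆ was -3.50 with a standard error of 0.31 (adjusted p = 0.021), -3.59 against lane 1 and -3.33 against B50, so that B50 and lane 1 agreed. YLR154C-H holds no CATG, and its tag 58 bases past the stop codon (chrXII:468748-468768) occurs at 2 places in R64, so that its reads may belong to more than 1 copy. YLR154C-H did not pass without C50, D50, E50, lane 1a or lane 1b (the highest adjusted p in limma was 0.42). Of the 3 tested ORFs listed for the ribosomal DNA repeat it was the 1 without overlap, and their median log2 difference was -0.11. The other tested members overlapped between the groups. TAR1 was at 8.30, 8.10 and 6.86 RPM in bmh2∆ and at 1.81, 5.66 and 16.5 RPM in bmh1∆. YLR162W was at 1.94, 9.11 and 3.09 RPM in bmh2∆ and at 7.14, 6.72 and 1.44 RPM in bmh1∆.

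All 3 bmh2∆ libraries lay above all 3 bmh1∆ libraries for 548 genes (10.8% of those tested) and below them for 465 (9.2%). These are the genes for which B50 and both lane 1 libraries lay on the same side of bmh2∆. For 1049 genes (20.8%) the lane 1 libraries lay above all of bmh2∆ and B50 below, and for 666 (13.2%) the lane 1 libraries lay below and B50 above, so that bmh2∆ stood between the bmh1∆ libraries for more genes than it stood to one side of them. Of the 548 genes higher in bmh2∆, 111 (20.3%) had a log2 difference of 1 or more against both lane 1 and B50, 180 against lane 1 alone and 86 against B50 alone. Of the 465 genes lower in bmh2∆, 57 (12.3%) differed by 1 or more from both, 187 from lane 1 alone and 33 from B50 alone. Without B50, 2322 genes (45.9%) passed, but all bmh1∆ libraries are then of lane 1, and strain and lane cannot be told apart. With lane 1 as a term, which leaves the difference from B50, of lane 7 against lane 5, as the strain term, 1486 genes (29.4%) passed, 1009 higher and 477 lower in bmh2∆.

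**Figure D2:**
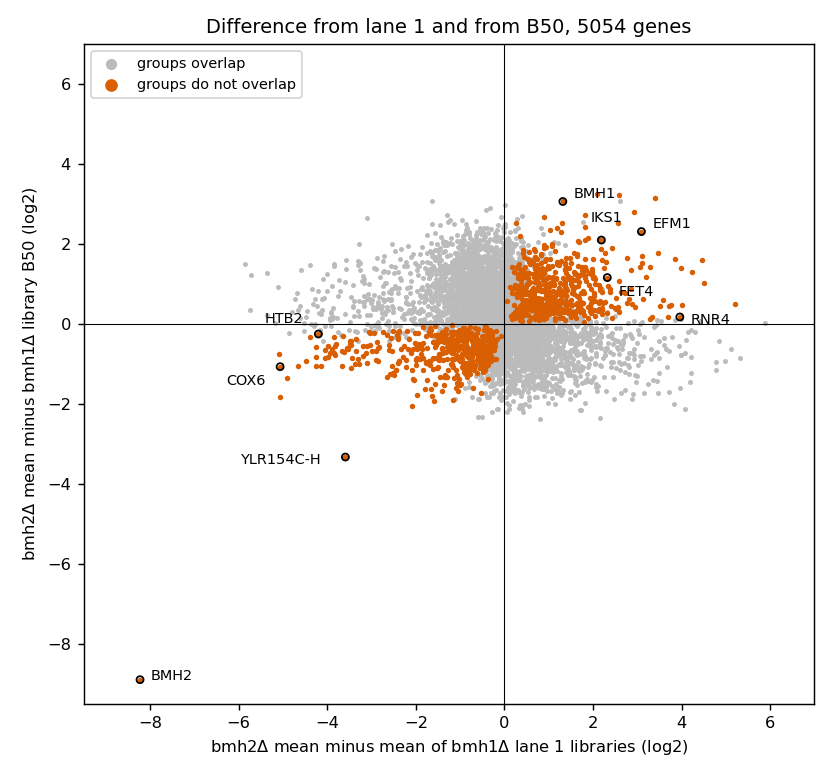
Each point is 1 of the 5054 genes. The x axis is the bmh2∆ mean of log2(RPM + 1) minus that of the 2 bmh1∆ libraries of lane 1, and the y axis the bmh2∆ mean minus the bmh1∆ library B50; orange points are the 1013 genes whose groups did not overlap. BMH2 at -8.23 and -8.90 and YLR154C-H at -3.59 and -3.33 lie far from 0 on both axes, whereas RNR4 and HTB2 do so on the x axis only.

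Among the genes with a mean of 10 or more RPM in a group and no overlap, the 10 of smallest p with higher levels in bmh2∆ had log2 differences of 1.68 to 2.90, 1.65 to 3.46 against lane 1 and 1.54 to 2.79 against B50. None passed in limma (adjusted p from 0.15 to 0.27). EFM1, a methyltransferase of translation elongation factor eEF1A, was at 412, 436 and 480.4 RPM in bmh2∆ and at 57.4, 45.1 and 88.5 RPM in bmh1∆. The groups were far apart, and B50 was the nearest of the bmh1∆ libraries to bmh2∆ (log2 difference 2.83, standard error 0.35, 3.09 against lane 1 and 2.31 against B50). RIB2, an enzyme of riboflavin synthesis, was at 171, 196 and 236 RPM in bmh2∆ and at 36.1, 36.7 and 53.2 RPM in bmh1∆ (log2 difference 2.24, standard error 0.32). The putative protein kinase gene IKS1 was at 42.1, 32.1 and 50.8 RPM in bmh2∆ and at 7.29, 9.18 and 8.82 RPM in bmh1∆. Here B50 lay between lane 1a and lane 1b, so that the bmh1∆ libraries agreed closely (2.19 against lane 1 and 2.10 against B50). IKS1 passed when all 12 libraries, those without KCl included, shared 1 estimate of the spread. All 10 genes passed without B50, when every bmh1∆ library is of lane 1 and strain and lane cannot be told apart.

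UGA2, succinate semialdehyde dehydrogenase of the use of GABA as nitrogen source, was at 69.5, 62.99 and 112 RPM in bmh2∆ and at 15.6, 17.7 and 20.8 RPM in bmh1∆. END3, which acts in endocytosis and actin organisation, was at 146, 181 and 248 RPM in bmh2∆ and at 40.9, 38.5 and 60.8 RPM in bmh1∆. In both genes B50 was the highest of the bmh1∆ libraries. PAT1, an activator of mRNA decapping, was at 181, 218 and 235 RPM in bmh2∆ and at 76.3, 57.4 and 61.6 RPM in bmh1∆, with 1.65 against lane 1 and 1.75 against B50. SEC63, a subunit of the machinery that moves proteins into the endoplasmic reticulum, was at 435, 487 and 634 RPM in bmh2∆ and at 120.3, 90.5 and 176 RPM in bmh1∆. IDH1, a subunit of mitochondrial isocitrate dehydrogenase, was at 331, 482 and 593 RPM in bmh2∆ and at 57.6, 47.1 and 139.9 RPM in bmh1∆. For IDH1 the difference was 3.11 against lane 1 and 1.70 against B50, unequal in size. The same sign was fixed by the choice of genes without overlap. SGF29, a subunit of the SAGA histone acetyltransferase complex, was at 30.5, 22.4 and 37.96 RPM in bmh2∆ and at 1.60, 1.97 and 8.02 RPM in bmh1∆. YJR115W was at 105, 28.7 and 80.5 RPM in bmh2∆ and at 9.83, 5.49 and 8.18 RPM in bmh1∆, and D50 was low among the bmh2∆ libraries. The second subunit of isocitrate dehydrogenase, IDH2, lay on the other side, at 284, 249 and 274 RPM in bmh2∆ and at 668, 720.4 and 343 RPM in bmh1∆ (log2 difference -1.03, adjusted p = 0.35), with B50 nearer to bmh2∆ than lane 1.

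Besides BMH2 and YLR154C-H, the 8 genes of smallest p with lower levels in bmh2∆ had adjusted p = 0.27 or above. CSM3, which stabilises stalled replication forks, was at 16.7, 10.5 and 7.82 RPM in bmh2∆ and at 58.9, 42.9 and 49.4 RPM in bmh1∆ (log2 difference -2.07, standard error 0.38). B50 lay between the lane 1 libraries, and the difference was -2.08 against lane 1 and -2.05 against B50. MCM3, a subunit of the replicative helicase, was at 15.1, 15.6 and 19.7 RPM in bmh2∆ and at 61.2, 54.9 and 45.7 RPM in bmh1∆. GCS1, a GTPase-activating protein for Arf in vesicle transport, was at 80.7, 49.1 and 58.8 RPM in bmh2∆ and at 239, 285 and 161 RPM in bmh1∆. In MCM3 and GCS1 B50 was the bmh1∆ library nearest to bmh2∆. YBR074W, a vacuolar membrane protease, was at 25.8, 22.2 and 18.5 RPM in bmh2∆ and at 61.8, 73.1 and 64.6 RPM in bmh1∆, with a difference of -1.57 against lane 1 and -1.51 against B50. TAH18, which passes electrons to the iron-sulfur protein Dre2, was at 12.1, 6.85 and 7.53 RPM in bmh2∆ and at 27.98, 29.4 and 32.7 RPM in bmh1∆, the highest value being that of B50. DNM1, the dynamin-related protein of mitochondrial fission, was at 18.8, 11.3 and 13.2 RPM in bmh2∆ and at 85.5, 39.7 and 50.98 RPM in bmh1∆. For the gene of the alpha subunit of the signal recognition particle receptor the values were 17.4, 10.8 and 9.76 RPM in bmh2∆ and 72.5, 74.6 and 31.3 RPM in bmh1∆. The bmh1∆ library nearest to bmh2∆ was lane 1b in DNM1 and B50 in the receptor gene. YER076C was at 7.84, 6.39 and 6.09 RPM in bmh2∆ and at 32.7, 28.6 and 19.6 RPM in bmh1∆.

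**Figure D3:**
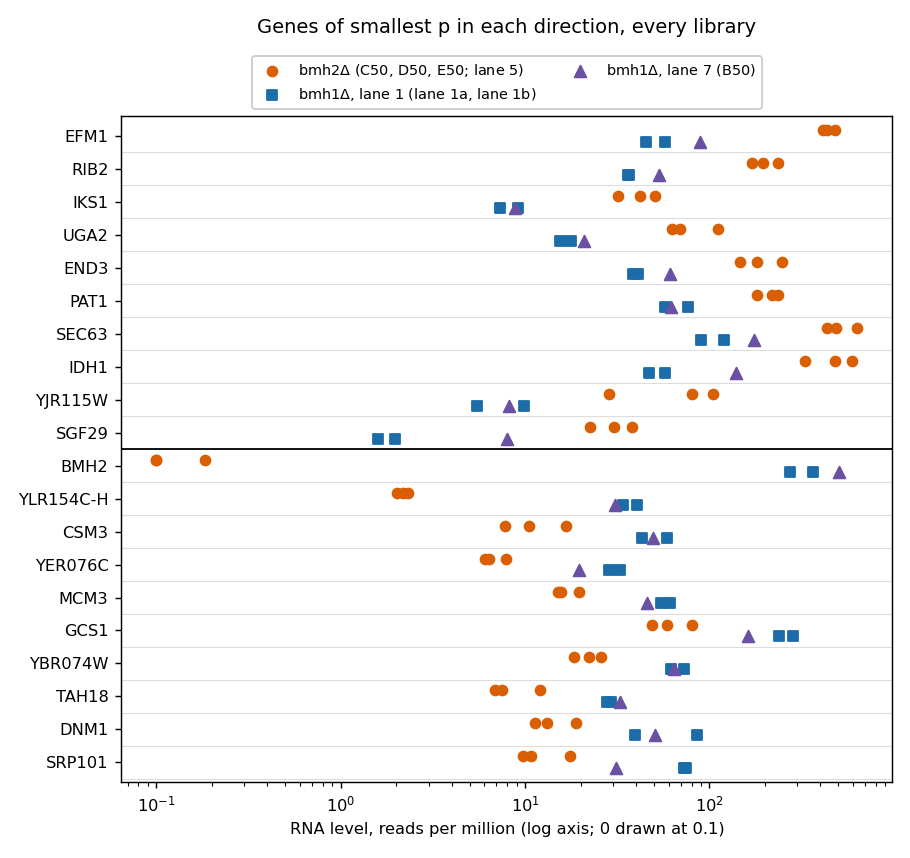
RNA level in RPM (log axis) of the 10 genes of smallest p higher in bmh2∆ (above the line) and the 10 lower in bmh2∆ (below it), with every library as a point: bmh2∆ circles above bmh1∆ squares (lane 1) and triangles (B50), values of 0 being drawn at the left edge. The 20 genes were chosen for no overlap, so that by this choice no bmh1∆ library reaches the bmh2∆ libraries in any of them. EFM1 stands at 412 to 480 RPM in bmh2∆ against 45.1 to 88.5 RPM in bmh1∆.

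The lane 1 libraries and B50 differed by where the next NlaIII site lies. Of the 6053 genes 5558 were matched by name to R64, 4940 of them tested. For the 1950 genes with a CATG within 150 bases after the stop codon, the median log2 difference of lane 1 minus B50 was 1.08, and lane 1 was above B50 in 75.8% of them. For the 2990 genes without one it was -0.20, and lane 1 was above B50 in 45.3%. bmh2∆ stood between the bmh1∆ libraries in the first class, with medians of -0.32 against lane 1 and 0.76 against B50, and at 0.0060 against lane 1 and -0.20 against B50 in the second. The median of bmh2∆ minus bmh1∆ was 0.04 in the first class and -0.03 in the second. Across genes, Spearman's rho of the distance from the stop codon to the next CATG was -0.32 with lane 1 minus B50 and -0.08 with bmh2∆ minus bmh1∆ (4705 genes, which share the libraries). For the distance from the last CATG in the ORF to the end of the stop codon, rho was of like size, -0.33 and -0.03 (4786 genes). Of the genes with a CATG within 150 bases, 14.6% lay without overlap above and 4.62% below bmh1∆, against 8.23% and 12.3% of the others. Of the 10 genes named above as higher in bmh2∆, 8 had a CATG within 150 bases after the stop codon, and of the 10 lower 1 had, against 39.5% of the matched genes. Both sets were taken from the genes without overlap, whose shares already differ by tag position as just given. EFM1 is among the 8, and IKS1, which has no CATG within 1000 bases after the stop codon, is not. The part of the tag position in these differences was not tested.

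**Figure D4:**
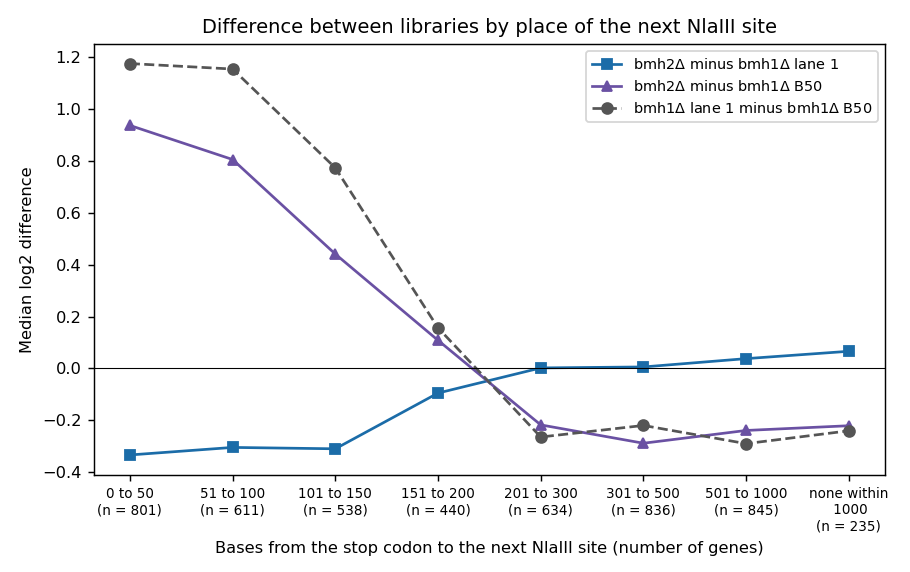
Median log2 difference between libraries (y axis) of the matched genes tested, in 8 classes by the number of bases from the stop codon to the next NlaIII site (x axis, with the number of genes). For genes with a site within 50 bases the median was -0.33 for bmh2∆ minus lane 1, 0.94 for bmh2∆ minus B50 and 1.18 for lane 1 minus B50; from 201 bases on all 3 medians lay between -0.29 and 0.07.

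PHO84 was at 5.17, 6.07 and 5.41 RPM in bmh2∆ and at 1.03, 3.61 and 1.92 RPM in bmh1∆. Every bmh2∆ library lay above every bmh1∆ library, B50 lay between the lane 1 libraries, and the difference was 1.09 against lane 1 and 1.16 against B50 (log2 difference 1.12, standard error 0.38, limma adjusted p = 0.32). SPL2 was at 6.83, 7.55 and 5.99 RPM in bmh2∆ and at 2.48, 2.71 and 2.89 RPM in bmh1∆. Its difference was 1.11 against lane 1 and 1.00 against B50 (log2 difference 1.07, standard error 0.29, limma adjusted p = 0.28). With a pseudocount of 5 in place of 1 the log2 difference was 0.57 for PHO84 and 0.61 for SPL2, as both are at low levels. In an exact two-sided permutation test each gene had p = 0.1, the smallest that 3 libraries against 3 allow. Both genes were thus at a few RPM in either strain, and the means differed by 3.36 RPM for PHO84 and 4.10 RPM for SPL2. Their last CATG starts 12 and 5 bases before the end of the stop codon, and the next CATG lies 602 and 185 bases beyond it.

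Of the 22 PHO genes listed as targets of Pho4, 17 were tested. In limma 0 of them passed and 5 had an unadjusted p under 0.05, against 13.1% of all genes tested. Of the 17, 7 lay without overlap above bmh1∆ and 1 below, against 10.8% and 9.2% of all genes tested. PHO84 and SPL2, which the study picked out on these samples, are among the 5 and among the 7. The median log2 difference of the list was 0.28, -0.24 against lane 1 and 1.00 against B50, beside 0.0019, -0.12 and 0.18 over all genes tested. GDE1, a glycerophosphocholine phosphodiesterase, was at 62.3, 53.7 and 62.6 RPM in bmh2∆ and at 19.96, 20.9 and 27.6 RPM in bmh1∆, and like PHO84 and SPL2 it lay above lane 1 and B50 by amounts near each other (1.49 and 1.08). VTC2, a subunit of the vacuolar polyphosphate polymerase, was at 199.97, 217 and 242 RPM in bmh2∆ and at 140.3, 165 and 107 RPM in bmh1∆. PPN1, a polyphosphatase, was at 310.5, 321 and 315 RPM in bmh2∆ and at 176, 147 and 238 RPM in bmh1∆. PHO8, the vacuolar alkaline phosphatase, was at 17.3, 23.05 and 16.2 RPM in bmh2∆ and at 14.6, 9.51 and 12.2 RPM in bmh1∆. The difference was 0.52 against lane 1 and 1.03 against B50 for VTC2, 0.97 and 0.41 for PPN1, and 0.62 and 0.58 for PHO8. For PHO81, the inhibitor of the Pho80 and Pho85 kinase, the values were 62.4, 50.8 and 43.9 RPM in bmh2∆ and 39.5, 9.02 and 37.8 RPM in bmh1∆, where lane 1b alone was far lower. HOR2, a glycerol-3-phosphate phosphatase, was the member below bmh1∆, at 26.1, 16.4 and 17.1 RPM in bmh2∆ and at 39.7, 44.9 and 60.6 RPM in bmh1∆.

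In 6 further members the lane 1 libraries lay above bmh2∆ and B50 below. VTC1, of the same polymerase as VTC2, was at 187, 209.5 and 264 RPM in bmh2∆ and at 294, 344 and 115 RPM in bmh1∆. VTC4, its catalytic subunit, was at 41.7, 74.1 and 88.6 RPM in bmh2∆ and at 106, 124 and 27.3 RPM in bmh1∆. For these genes the sign of the difference was set by which bmh1∆ library bmh2∆ was compared with. The acid phosphatase gene PHO5, under the filter, was at 0.738, 1.09 and 0.676 RPM in bmh2∆ and at 16.8, 14.02 and 1.28 RPM in bmh1∆, high in lane 1 only. PHO11, another acid phosphatase gene under the filter, was at 1.20, 2.02 and 1.26 RPM in bmh2∆ and at 29.8, 38.2 and 0.962 RPM in bmh1∆, and it shares most of its sequence with PHO12, so that its reads are uncertain. PHO4, the transcription factor itself, was at 46.8, 39.5 and 45.8 RPM in bmh2∆ and at 1.45, 0.820 and 41.8 RPM in bmh1∆, so that B50 lay within bmh2∆ and lane 1 far below. Of the 11 tested genes of PHO signalling and low-affinity uptake 2 lay without overlap below bmh1∆ and none above, 18.2% of the list against 20% of all genes tested. KCS1, an inositol pyrophosphate synthase, was at 27.4, 17.1 and 12.1 RPM in bmh2∆ and at 47.2, 35.4 and 69.6 RPM in bmh1∆ (-1.15 against lane 1 and -1.90 against B50). PHO91, the vacuolar phosphate transporter, was at 30.4, 36.3 and 25.2 RPM in bmh2∆ and at 37.7, 59.5 and 72.8 RPM in bmh1∆.

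Of the 15 tested genes of potassium and sodium transport, 3 lay without overlap below bmh1∆ and none above, a share equal to the 20% of all genes tested, and the median log2 difference was -0.11. TRK1, the main potassium importer, was at 38.4, 51.3 and 44.4 RPM in bmh2∆ and at 52.3, 50.3 and 38.96 RPM in bmh1∆, so that the groups overlapped. TOK1, the outward potassium channel, was at 17.8, 10.7 and 11.5 RPM in bmh2∆ and at 59.4, 48.3 and 20.7 RPM in bmh1∆. The difference was -1.96 against lane 1 and -0.63 against B50. ENA2, a sodium pump, was at 7.19, 6.15 and 4.25 RPM in bmh2∆ and at 132, 123 and 9.14 RPM in bmh1∆. ENA2 was thus high in the lane 1 libraries alone (-4.25 against -0.59), as was ENA5 (-3.45 against lane 1 and -0.85 against B50). ENA2 and ENA5 are near-identical copies in one array, and how reads fall between them is uncertain.

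The marker genes of an a cell were present. MFA1, the first a-factor gene, was at 3936, 4146 and 5177 RPM in bmh2∆ and at 1809.8, 1779 and 2602 RPM in bmh1∆, above all bmh1∆ libraries (1.29 against lane 1 and 0.75 against B50, limma adjusted p = 0.29). MFA2, the second a-factor gene, was at 17.8, 20.1 and 22.5 RPM in bmh2∆ and at 54.7, 61.2 and 7.21 RPM in bmh1∆, with lane 1 above and B50 below bmh2∆. STE2, the receptor for alpha-factor, was at 565, 651 and 619 RPM in bmh2∆ and at 635, 608 and 486 RPM in bmh1∆, and the groups overlapped. Of the genes of alpha cells, MF(ALPHA)1 and MF(ALPHA)2, which encode alpha-factor, were at 2.46 RPM or less in every library. STE3, the receptor for a-factor, was at 2.58, 1.01 and 1.06 RPM in bmh2∆ and at 3.83, 4.02 and 6.09 RPM in bmh1∆, a few RPM in either strain. SAG1, alpha-agglutinin, was at 10.4, 11.2 and 8.21 RPM in bmh2∆ and at 16.7, 17.7 and 17.5 RPM in bmh1∆. Both lay without overlap below bmh1∆, as did 9.2% of all genes tested. They were the only 2 tested of the 8 alpha-cell genes listed. URA3, deleted in BY4741, was at 0.328 RPM or less. HIS3, which carries the his3Δ1 allele, was at 13.6, 21.4 and 9.95 RPM in bmh2∆ and at 3.88, 2.21 and 19.7 RPM in bmh1∆, and the groups overlapped. Of the 27 tested genes of mating and a-cell identity, 4 lay without overlap above bmh1∆ and 3 below (25.9%, against 20% of all genes tested). FAR1, which arrests the cell cycle in answer to pheromone, was at 34.7, 31.2 and 20.5 RPM in bmh2∆ and at 57.05, 64.05 and 80.6 RPM in bmh1∆. GPA1, the G protein subunit of the pheromone receptor, was at 91.96, 69.5 and 74.9 RPM in bmh2∆ and at 124, 186 and 135 RPM in bmh1∆. FUS2, a gene of cell fusion, was at 5.90, 10.9 and 10.9 RPM in bmh2∆ and at 3.05, 1.64 and 3.21 RPM in bmh1∆. In FAR1, GPA1 and FUS2 the difference was of like size from both sides (-1.08 and -1.49, -0.95 and -0.78, 1.60 and 1.24 against lane 1 and B50).

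Among the lists with 10 or more genes tested, leaving aside those the study chose, 3 had the highest medians. Each of these lay above 0 against lane 1 and against B50, which picking them by the median over the same libraries favours. The lists of heat shock (0.24 against lane 1 and 0.07 against B50) and general stress (0.11 and 0.54) also lay above 0 against both. Of the 26 tested genes of iron, zinc and copper uptake 8 lay without overlap above bmh1∆ and 1 below, against 10.8% and 9.2% of all genes tested (median log2 difference 0.48, 0.39 against lane 1 and 0.37 against B50). FET4, a low-affinity iron transporter, was at 68.9, 58.5 and 57.1 RPM in bmh2∆ and at 12.5, 10.5 and 26.9 RPM in bmh1∆ (2.32 against lane 1 and 1.16 against B50). FET4 is among the genes that the study chose for bmh1∆ on these samples. The vacuolar copper transporter gene CTR2 was at 110.04, 112 and 163 RPM in bmh2∆ and at 54.7, 55.5 and 42.96 RPM in bmh1∆. SIT1, a siderophore transporter, was at 185, 192 and 219.8 RPM in bmh2∆ and at 111, 102 and 30.3 RPM in bmh1∆, with B50 lowest. FET3, the multicopper oxidase of high-affinity iron uptake, was at 850.1, 947 and 1022 RPM in bmh2∆ and at 825, 583 and 291 RPM in bmh1∆, but its partner FTR1 was at 267, 228 and 206 RPM in bmh2∆ and at 109.96, 129 and 373 RPM in bmh1∆, so that B50 lay on the other side. IZH1, regulated by zinc, was the member below bmh1∆, at 4.70, 3.74 and 2.80 RPM in bmh2∆ and at 70.1, 84.3 and 6.41 RPM in bmh1∆, high in lane 1 alone.

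Of the 22 tested genes of the Adr1 regulator and of glucose repression 6 lay without overlap above bmh1∆ and none below, against the same 10.8% and 9.2% of all genes tested (median 0.49, 0.46 against lane 1 and 0.47 against B50). HXK1, a hexokinase gene, was at 1049.5, 206 and 915 RPM in bmh2∆ and at 141, 150.3 and 190.4 RPM in bmh1∆. ICL1, isocitrate lyase of the glyoxylate cycle, was at 32.01, 28.6 and 28.9 RPM in bmh2∆ and at 23.7, 19.9 and 12.7 RPM in bmh1∆. The bmh2∆ libraries agreed for ICL1, while D50 was low for HXK1. D50 was also the low bmh2∆ library for HXT4, a hexose transporter, at 98.2, 12.7 and 59.2 RPM in bmh2∆ and at 8.48, 4.43 and 3.69 RPM in bmh1∆. It was low as well for GLC3, the glycogen branching enzyme, at 108, 34.3 and 159 RPM in bmh2∆ and at 15.5, 22.96 and 8.02 RPM in bmh1∆. TMA10, a stress-responsive gene, was at 393, 30.1 and 456 RPM in bmh2∆ and at 11.5, 21.5 and 19.1 RPM in bmh1∆, so that D50 stood near bmh1∆ in a gene whose other bmh2∆ values were far above it. Over the 49 tested genes of the general stress response the median was 0.30, 0.11 against lane 1 and 0.54 against B50, with 6 without overlap above and 3 below bmh1∆ (18.4%, against 20% of all genes tested). GPD1, glycerol-3-phosphate dehydrogenase of the osmotic response, was among the 3 below, at 84.95, 89.2 and 72.5 RPM in bmh2∆ and at 292, 591 and 128 RPM in bmh1∆.

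Of the 12 tested genes induced by DNA damage 4 lay without overlap above bmh1∆ and none below, against 10.8% and 9.2% of all genes tested (median 0.55, 0.47 against lane 1 and 0.63 against B50). RNR2, the small subunit of ribonucleotide reductase, was at 455, 774 and 706 RPM in bmh2∆ and at 288, 208 and 297 RPM in bmh1∆ (1.36 against lane 1 and 1.08 against B50). RNR4, which pairs with Rnr2, was at 1035, 976 and 924 RPM in bmh2∆ and at 73.8, 51.7 and 868 RPM in bmh1∆, so that nearly all of its difference came from lane 1 (3.96 against lane 1 and 0.17 against B50). Among 23 tested genes of known 14-3-3 partners 3 lay without overlap above and 3 below (26.1%, against 20% of all genes tested), with a median of 0.13.

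The genes that the study chose as changed against BY4741 were chosen on these samples, and their side here is no independent evidence. Of the 9 tested genes chosen for bmh1∆, 5 lay without overlap above bmh1∆ and 3 below. Of the 6 chosen for bmh2∆, 4 lay above and 1 below, against 10.8% and 9.2% of all genes tested. The 1 below is the deleted BMH2 itself, and SPL2 is in both lists. MFA1, FET4 and TMA10, given above, are also among the genes that the study chose. XBP1, a transcriptional repressor, was at 14.8, 3.82 and 6.66 RPM in bmh2∆ and at 20.9, 21.2 and 25.6 RPM in bmh1∆. TAM41, of cardiolipin synthesis in mitochondria, was at 31.5, 12.4 and 20.8 RPM in bmh2∆ and at 57.2, 49.04 and 50.5 RPM in bmh1∆. PTR2, the peptide transporter, was at 29.7, 39.3 and 21.9 RPM in bmh2∆ and at 59.997, 71.8 and 55.5 RPM in bmh1∆. In these 3 genes the bmh1∆ libraries agreed and the bmh2∆ libraries varied more in XBP1 and TAM41. RSC9, a subunit of the RSC chromatin remodelling complex, was at 97.1, 133 and 146 RPM in bmh2∆ and at 89.2, 34.9 and 50.2 RPM in bmh1∆. FMS1, a polyamine oxidase, was at 57.3, 87.4 and 74.3 RPM in bmh2∆ and at 36.6, 11.4 and 27.9 RPM in bmh1∆. SPG5, a gene of stationary phase, was at 151, 176 and 208 RPM in bmh2∆ and at 151, 58.3 and 89.5 RPM in bmh1∆. Lane 1a was the highest bmh1∆ library in RSC9, FMS1 and SPG5, and in SPG5 it came within 1 RPM of C50. CTA1, the peroxisomal catalase, was at 11.8, 8.80 and 10.1 RPM in bmh2∆ and at 10.1, 5.58 and 6.09 RPM in bmh1∆, and the groups overlapped. SOR2, a sorbitol dehydrogenase gene, was at 23.2, 16.04 and 17.3 RPM in bmh2∆ and at 7.24, 14.6 and 13.6 RPM in bmh1∆, and MSC1 overlapped between the groups, with a log2 difference of 0.02.

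The lists of amino acid synthesis and of the ribosomal proteins had medians near 0, with members on both sides. Of 53 tested genes of amino acid synthesis 3 lay without overlap above and 6 below bmh1∆, 17.0% against 20% of all genes tested (median 0.03). HIS4, of histidine synthesis, was at 269, 148 and 148 RPM in bmh2∆ and at 998, 598 and 407 RPM in bmh1∆, and LEU4, of leucine synthesis, differed by -1.45, with -1.71 against lane 1 and -0.93 against B50. ASN1, an asparagine synthetase, lay above, at 575, 857 and 946 RPM in bmh2∆ and at 247, 357 and 389 RPM in bmh1∆. Of 32 tested genes of ergosterol and fatty acid synthesis 1 lay above and 4 below, 15.6% against the same 20%, with a median of -0.13. ERG6, a sterol methyltransferase, was at 177, 122 and 102 RPM in bmh2∆ and at 827, 622 and 293 RPM in bmh1∆, and ERG11, the target of azole drugs, at 63.6, 42.5 and 40.9 RPM in bmh2∆ and at 169.9, 213 and 87.4 RPM in bmh1∆. Of 44 tested cytosolic ribosomal protein genes 3 lay above and 6 below, 20.5% against 20% (median -0.05). RPS12 was at 2173, 2420.3 and 2333 RPM in bmh2∆ and at 1214, 875 and 1034 RPM in bmh1∆, a difference of 1.16 from lane 1 and 1.16 from B50. The 60 tested mitochondrial ribosomal protein genes had a median of -0.02, made of -0.46 against lane 1 and 0.78 against B50, and for 30 of them lane 1 and B50 lay on opposite sides of bmh2∆, against 33.9% of all genes tested. Of the 60, 5 lay without overlap above and 1 below bmh1∆, 10.0% against 20% of all genes tested. MRPL44, chosen from those 5, was at 155, 184 and 228 RPM in bmh2∆ and at 58.4, 47.1 and 81.6 RPM in bmh1∆. FCY2, a purine and cytosine permease, was at 975, 1287 and 1561 RPM in bmh2∆ and at 501, 386 and 434 RPM in bmh1∆ (1.51 against lane 1 and 1.52 against B50). SUL2, a sulfate permease, was at 26.6, 28.3 and 32.2 RPM in bmh2∆ and at 6.88, 4.10 and 10.4 RPM in bmh1∆. TPO3, a polyamine exporter, was at 12.7, 15.03 and 13.1 RPM in bmh2∆ and at 4.19, 2.62 and 4.49 RPM in bmh1∆. The bmh1∆ library nearest to bmh2∆ was lane 1a in FCY2 and B50 in SUL2 and TPO3.

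**Figure D5:**
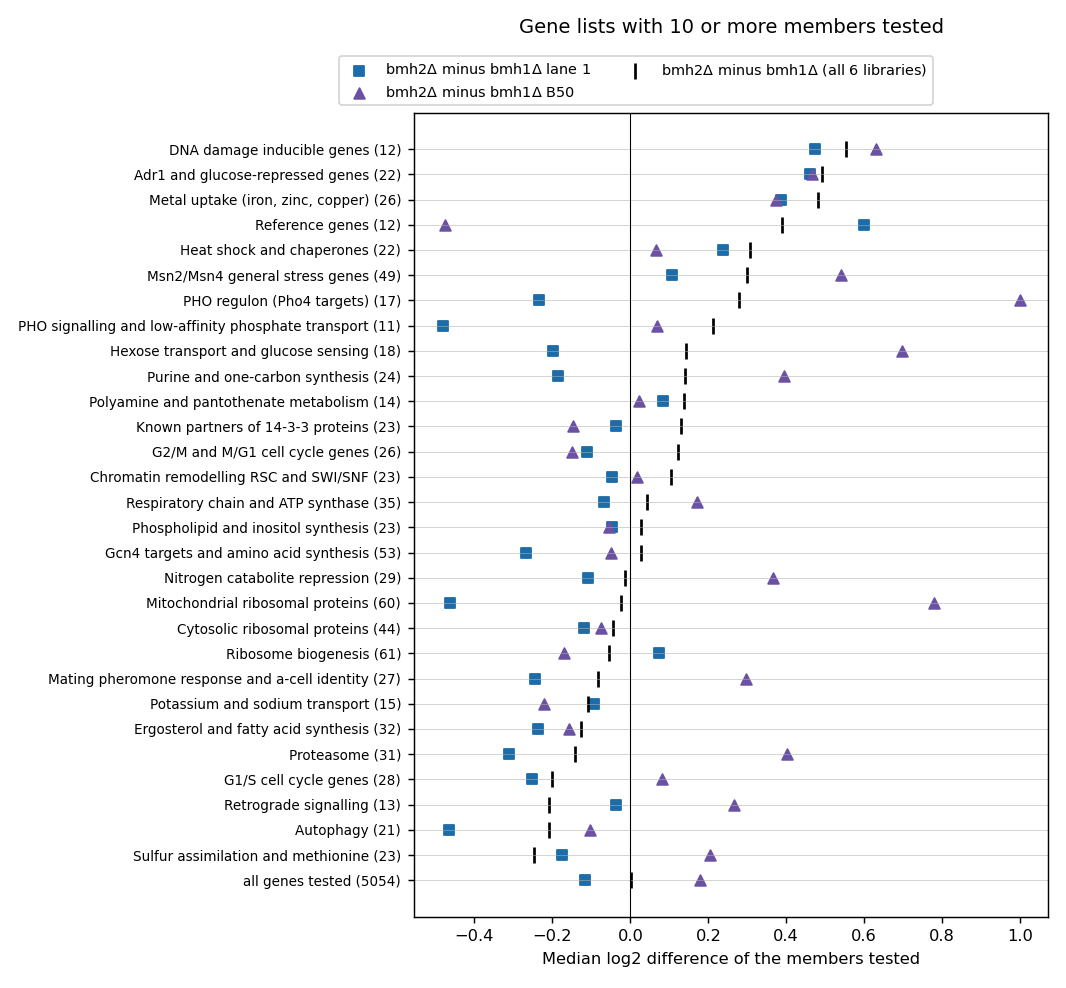
Median log2 difference of the tested members (number in parentheses) of each gene list with 10 or more of them, for bmh2∆ minus the lane 1 libraries (squares), minus B50 (triangles) and in the fit of all 6 libraries (bars). The median of the PHO genes was -0.24 against lane 1 and 1.00 against B50, while those of metal uptake were 0.39 and 0.37.

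Some genes lay apart without overlap with a far greater difference from lane 1 than from B50. COX6, a subunit of cytochrome c oxidase, was at 8.76, 4.13 and 3.57 RPM in bmh2∆ and at 192, 216 and 11.9 RPM in bmh1∆. HTB2, a histone H2B gene, was at 95.4, 117 and 87.5 RPM in bmh2∆ and at 1725, 1959.6 and 118 RPM in bmh1∆. RPS23A, a ribosomal protein gene, was at 199.97, 180.1 and 100.3 RPM in bmh2∆ and at 4160.04, 3698 and 320.5 RPM in bmh1∆. In each the lane 1 libraries were more than 10 times as high as B50, and HTB2 and RPS23A have near-identical copies (HTB1 and RPS23B) to which reads may be assigned. SSZ1, a ribosome-bound chaperone, showed the reverse, at 1813, 2165 and 2412 RPM in bmh2∆ and at 362, 223 and 1505 RPM in bmh1∆, with lane 1 low. Among genes used as references for normalisation, ACT1, the actin gene, was at 1791, 2164 and 1849.8 RPM in bmh2∆ and at 1189.7, 1203 and 1548 RPM in bmh1∆. TAF10, of the transcription factor TFIID, was at 6.55, 4.28 and 7.53 RPM in bmh2∆ and at 82.2, 92.99 and 10.3 RPM in bmh1∆, so that of the 12 reference genes tested 2 lay without overlap above and 1 below bmh1∆, 25.0% against 20% of all genes tested. The 7 tested genes encoded by mitochondrial DNA had a median of 2.07 against lane 1 and -0.95 against B50. COX1, a subunit of cytochrome c oxidase, was at 32.5, 34.6 and 33.2 RPM in bmh2∆ and at 11.9, 17.7 and 63.8 RPM in bmh1∆, so that B50 was above and lane 1 below bmh2∆. Summed over the 14 such genes in the table, the level was 136 to 171 RPM in bmh2∆ and 16.8 to 357 RPM in bmh1∆.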

How the data were processed

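The deposited values are RPM per gene, scaled by the authors from SAGE tags of poly(A) RNA. The software and the genome build of the matching were not given in the sources used here. All values are whole multiples of a step of their library (tolerance 0.01), the smallest being 2 steps, so that they were not treated as read counts. Depth per library sets the precision of low values.

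Libraries were grouped by their column names. log2(RPM + 1) of the 5054 genes was fitted with limma 3.58.1 (R 4.3.3; trend and robust, two-sided, Benjamini-Hochberg over all genes tested, adjusted p of 0.05). The procedure was tested on simulated data in which every library had the spread of bmh2∆. They held no split between lane 1 and B50, so that they do not show how the fit behaves on the real libraries. Lane 1 and B50 are compared with the mean of log2(RPM + 1) in bmh2∆. PHO84 and SPL2 were also tested by exact permutation (SciPy 1.17.1). Tags were read from R64.

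Named genes are BMH1, BMH2, PHO84, SPL2, the genes the study chose, every gene that passed, the 10 of smallest p in each direction with 10 or more RPM and no overlap, and up to 4 per gene list. Other members were named after their values were seen. The members and lists were chosen with earlier results of these data known. Alternatives were other pseudocounts, filters, scalings, variance models, thresholds, all 12 libraries, a lane term and fewer libraries.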

Additional observations from a re-analysis of the deposited data

How the results depend on the processing

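The same 2 genes, BMH2 and YLR154C-H, passed with pseudocounts of 0.5 and 5, a filter of 10 RPM, no filter, median-of-ratios scaling, quantile normalization, a limma fit with neither trend nor robust, and an adjusted p of 0.1; with all 12 libraries sharing the spread 3 genes passed. With lane 1 as a term 1486 genes passed, 29.4% of those tested, and without both lane 1 libraries, chosen after seeing the data, 1742, where B50 alone is assumed to vary like bmh2∆. Leaving out 1 library gave 1 to 2322 genes: 1 (BMH2) without C50, D50, E50, lane 1a or lane 1b, and 2322 without B50. The log2 difference of SPL2 was 1.00 and past the threshold with lane 1 as a term (adjusted p = 0.044) and without both lane 1 libraries (adjusted p = 0.040 in limma). That of PHO84 was 1.16 in both, past the threshold without both lane 1 libraries (adjusted p = 0.025) but not with lane 1 as a term (adjusted p = 0.062). A pseudocount of 5 lowered PHO84 to 0.57 and SPL2 to 0.61. Leaving out 1 library, PHO84 ranged from 0.83 to 1.42 and SPL2 from 1.00 to 1.15, and both passed without B50, PHO84 at 1.09 (adjusted p = 0.021) and SPL2 at 1.11 (adjusted p = 0.0050). MSC1 turned from 0.02 to -0.17 with lane 1 as a term and without both lane 1 libraries, to -0.28 without C50, to -0.20 without E50 and to -0.073 without lane 1b. The cause was not tested. No alternative reversed another gene named by the rule. Of genes named after their values were seen, those with lane 1 and B50 on opposite sides of bmh2∆ change sign with lane 1 as a term wherever the fit of all 6 libraries has the sign of lane 1, VTC1 from -0.06 to 0.92 and FTR1 from 0.41 to -0.68 among them. The count tests planned for whole reads were not run, because values start at 2 steps and read counts were not recovered. No paired analysis was possible because the column names carry no replicate numbers. B50 has the lowest depth, and its step of 0.160 RPM limits values under the filter.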

Other observations

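The widest gaps between the bmh1∆ libraries were in genes that lay outside the comparison's calls. YOL038C-A was at 10.4, 13.9 and 14.4 RPM in bmh2∆ (C50, D50 and E50) and at 675, 936 and 3.85 RPM in bmh1∆ (lane 1a, lane 1b and B50). OSH7, which encodes an oxysterol-binding protein homologue, was at 1.66, 3.74 and 2.32 RPM in bmh2∆ and at 173, 190.4 and 0.481 RPM in bmh1∆. In both, lane 1 was high and B50 lay below bmh2∆. TLG2, a t-SNARE gene, was at 82.6, 72.2 and 63.7 RPM in bmh2∆ and at 1.24, 0.492 and 132 RPM in bmh1∆, the other way round. HEM13, of heme synthesis, was at 106, 87.7 and 66.1 RPM in bmh2∆ and at 0.828, 0.164 and 84.3 RPM in bmh1∆, so that B50 lay within bmh2∆.

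The index of lane 1a, GGATAT, is also that of the bmh1∆ library B0 without KCl, and the index of lane 1b, CTATAG, that of the bmh2∆ library C0 without KCl. Pearson's r across the 5054 genes was 0.772 for lane 1a with B0 and 0.690 for lane 1b with C0. With C50, D50 and E50, of other indices, r was 0.772 to 0.814 for lane 1a and 0.733 to 0.777 for lane 1b. C50 (GTCACG) and B50 (TGCACT) also share their indices with lane 1 bmh1∆ libraries without KCl, at an r of 0.808 and 0.551. PHO84 was at 113 RPM in B0 and 253 RPM in C0, against 1.03 RPM in lane 1a and 3.61 RPM in lane 1b. BMH2 was at 0.291 RPM in C0 and 363 RPM in lane 1b.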
